A study of Schizosaccharomyces pombe with 87 samples.

Results

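The set described here comprises every long non-coding RNA (lncRNA) record on chromosomes I, II and III of a PomBase-derived annotation of the fission yeast Schizosaccharomyces pombe: 7158 of 58359 records. A record is 1 annotated transcript or feature with a start, an end and a strand. The 7158 records belong to 7157 of 12633 genes, or 56.7%, since only sme2 has more than 1 lncRNA record. Each lncRNA was classed by overlap of at least 1 bp with the 5121 mRNA records: antisense where mRNAs overlapped it on the opposite strand only, sense where any mRNA overlapped it on the same strand, and intergenic where none did. The rule used positions and strands, and no measurement.

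The annotation was deposited with a chromatin immunoprecipitation study of H3K9me2 and H3K9me3, the histone marks of heterochromatin, in cells grown to log phase in YEA medium. Its 87 libraries, 48 immunoprecipitated and 39 input, form an ectopic and an endogenous strain set. The ectopic set of 56 libraries holds swi6-delta, swi6-delta mst2-delta, swi6-delta set1-delta, swi6-delta mst2-delta set1-delta, mst2-delta set1-delta, clr4-delta and wild type. The endogenous set of 31 libraries holds the first 4 of these mutants and wild type. Swi6 is an HP1 protein, Clr4 the H3K9 methyltransferase, Mst2 a histone acetyltransferase and Set1 the H3K4 methyltransferase. The files analysed here carry no value of any library, and no label says to which strains the annotation belongs. All values below are therefore counts and positions of annotated records, without replicates or sampling error, and no test was run.

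Antisense transcripts run across a gene on its other strand, and in fission yeast many of them are kept at low levels by the nuclear exosome and by RNA interference. Transcripts of the centromeric outer repeats are processed into the small RNAs that guide Clr4 to chromatin. Other lncRNAs act in cis: transcription of nc-tgp1, prt2 and nc-pho1 across downstream phosphate genes represses those genes when phosphate is plentiful. The RNA-binding protein Mmi1 recognises clusters of a hexamer, TTAAAC or more loosely TNAAAC with N any base, in meiotic transcripts and directs them to the exosome. The lncRNA sme2, also called meiRNA, binds Mmi1 and thereby lets meiosis proceed.

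The sequences that follow show stretches with hexamer copies from 4 lncRNAs. These were chosen because they hold many copies or have a known tie to Mmi1 or phosphate control. Sequence was read from RefSeq (ASM294v3) on the strand of the lncRNA, 5′ to 3′, and each window of at most 300 bp overlaps no mRNA record. Capitals mark TNAAAC, which includes every TTAAAC. The first window is nam5 at chr1:3753818-3754086, plus strand, at the left edge of centromere I, and an identical run of 269 bases lies in nam6 at chr2:1609781-1610049, plus strand, in centromere II. The others are sme2 at chr2:339347-339645, minus strand, SPNCRNA.4831 at chr2:686359-686635, minus strand, and prt2 at chr2:4442551-4442798, plus strand.
nam5: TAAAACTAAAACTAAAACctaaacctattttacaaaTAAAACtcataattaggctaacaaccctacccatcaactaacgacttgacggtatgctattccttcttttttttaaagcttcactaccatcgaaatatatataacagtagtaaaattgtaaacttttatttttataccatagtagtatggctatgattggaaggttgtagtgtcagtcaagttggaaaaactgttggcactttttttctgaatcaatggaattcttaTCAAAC
sme2: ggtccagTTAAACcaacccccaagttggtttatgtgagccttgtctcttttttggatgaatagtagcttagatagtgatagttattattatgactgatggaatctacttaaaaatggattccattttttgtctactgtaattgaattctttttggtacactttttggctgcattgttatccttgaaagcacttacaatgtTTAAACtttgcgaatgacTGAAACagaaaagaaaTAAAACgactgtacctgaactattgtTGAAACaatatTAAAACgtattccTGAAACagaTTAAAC
SPNCRNA.4831: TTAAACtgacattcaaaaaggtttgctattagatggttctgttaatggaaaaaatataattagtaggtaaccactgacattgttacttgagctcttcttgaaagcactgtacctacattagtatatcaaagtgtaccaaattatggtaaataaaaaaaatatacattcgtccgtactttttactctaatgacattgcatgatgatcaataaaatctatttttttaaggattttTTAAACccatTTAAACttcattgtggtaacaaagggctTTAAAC
prt2: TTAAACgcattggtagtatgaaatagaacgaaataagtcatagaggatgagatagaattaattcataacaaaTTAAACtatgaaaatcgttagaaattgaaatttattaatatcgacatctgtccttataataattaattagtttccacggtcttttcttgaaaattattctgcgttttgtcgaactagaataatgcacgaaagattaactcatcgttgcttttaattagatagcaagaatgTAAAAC

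The printed windows hold 5 of the 9 TNAAAC of nam5, 8 of the 9 of sme2, 4 of the 10 of SPNCRNA.4831 and 3 of the 11 of prt2. In sme2 the hexamers gather at the 3′ end of the 1562 bp record. The copies in the SPNCRNA.4831 window all read TTAAAC. When the 3 chromosomes were divided into 83810 windows of 300 bp, counting both strands, 43.9% held at least 1 TNAAAC, 2.43% at least 3, 0.461% at least 4, 0.074% at least 5 and 0.0024% at least 8. TTAAAC stood at least once in 13.7% of the same windows. The windows printed were chosen for their copies, so these shares describe how common windows with as many copies are and test nothing. A match is a run of letters and does not show that Mmi1 binds there.

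The hexamer was found in lncRNAs of every class and in mRNAs. TTAAAC occurred 0.451 times per kb on the transcribed strand of antisense lncRNAs, 0.574 in sense and 0.617 in intergenic lncRNAs, against 0.41 in mRNAs. TNAAAC occurred 1.94, 2.09 and 2.23 times per kb in these classes, against 1.77 in mRNAs. On the other strand of the same records TTAAAC occurred 0.435, 0.538 and 0.621 times per kb, against 0.447 in mRNAs. TNAAAC occurred there 1.79, 2.11 and 2.30 times per kb, against 1.97 in mRNAs. In intergenic lncRNAs both motifs were thus about as frequent on the other strand. Of these 1603 lncRNAs, 980 (61.1%) have another lncRNA on that strand, so the 2 strands are not independent there. At least 1 TTAAAC stood in 31.3% of antisense, 47.7% of sense and 31.2% of intergenic lncRNAs, against 49.2% of the longer mRNAs. On either strand (TTAAAC or GTTTAA) the shares were 46.8%, 70.4% and 47.6%, against 71.8% of mRNAs. The most TTAAAC copies were found in SPNCRNA.3891, with 9, followed by SPNCRNA.4831 and prt2, with 7 each.

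Among the 2216 lncRNAs over 1 kb, nam5 and nam6 ranked first and second by TNAAAC density, with 8.32 and 8.27 per kb and 9 copies each. Their records, 1082 and 1088 bp long, were 96.2% identical over 1098 aligned columns, so they are near copies and not independent cases. SPNCRNA.4831, with 7.69 per kb, ranked 4. Other named transcripts that were looked up spread widely: nam1 ranked 16, sme2 ranked 20 with 5.76 per kb, prt2 ranked 295, nc-tgp1 ranked 315, nam3 ranked 712, nc-pho1 ranked 754, omt3 ranked 941 and rse1 ranked 1689.

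Antisense lncRNAs were by far the most common class. They numbered 5356, or 74.8% of the lncRNAs, beside 1603 intergenic (22.4%) and 199 sense lncRNAs (2.78%). Of the sense lncRNAs 93, or 46.7%, overlapped an mRNA on the opposite strand as well. Antisense lncRNAs were spread evenly over the strands, with 49.6% on the plus strand, and 115 of the sense lncRNAs lay on the plus strand and 84 on the minus strand.

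The lncRNAs covered 47.8% of the annotated chromosome length, against 76.7% for mRNAs. Antisense lncRNAs alone covered 40.6%, intergenic lncRNAs 6.56% and sense lncRNAs 2.18%. With lncRNAs counted, 43.8% of positions had a transcript on each strand, against 5.75% with mRNAs alone. Of all bases in mRNA records, 42.5% faced a lncRNA on the other strand.

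By median over the whole set, sense lncRNAs were long and intergenic lncRNAs short. The median length was 681.5 bp for antisense lncRNAs (middle 50% of records 365 to 1256 bp), 1242 bp for sense lncRNAs (808 to 1759 bp) and 454 bp for intergenic lncRNAs (299 to 760 bp). Over all lncRNAs it was 622 bp, against 1771 bp for mRNAs. Sense lncRNAs were not longer than antisense lncRNAs among the records shared with the other deposited annotation, as given below. Records over 1 kb made up 34.6% of antisense, 61.3% of sense and 15.4% of intergenic lncRNAs, against 83.5% of mRNAs. No lncRNA was shorter than 200 bp and 19 were exactly that long, a lower edge that belongs to the annotation. Below 250 bp lay 523 antisense (9.77%) and 236 intergenic lncRNAs (14.7%), and no sense lncRNA, the shortest of which had 282 bp.

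**Figure D1:**
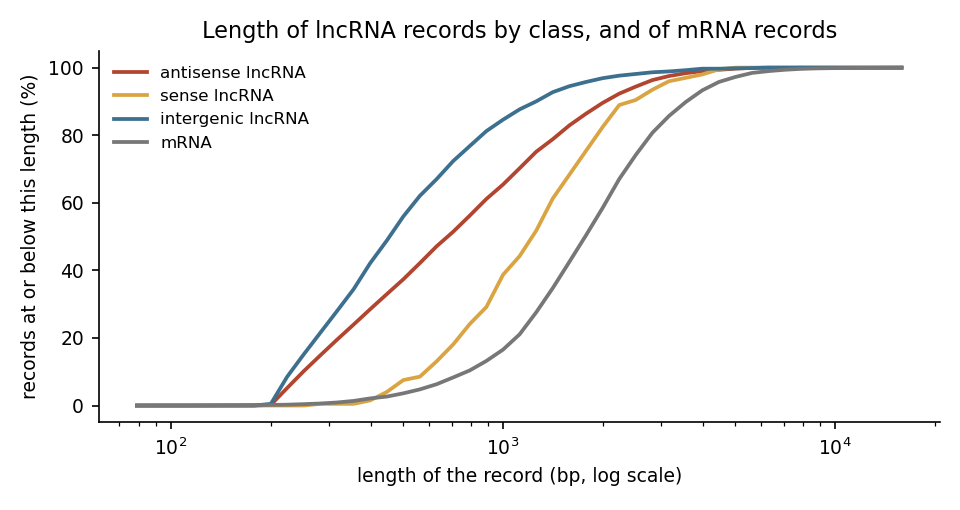
Cumulative length of lncRNA records by class, and of mRNA records: the horizontal axis gives record length in bp on a log scale and the vertical axis the percent of records at or below it. The intergenic curve lies left of the antisense curve, and both rise from the 200 bp edge, whereas the sense curve lies closer to that of mRNAs.

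The longest antisense lncRNA, SPNCRNA.3340, spanned 7193 bp across pdr1 and agl1. It was followed by SPNCRNA.5375 with 5957 bp, across rga4, cbp7 and esf2, and by SPNCRNA.3415 with 5775 bp, across frs2, spa2 and ssu72. The shortest length, 200 bp, was shared by 11 antisense lncRNAs, among them SPNCRNA.2648, SPNCRNA.3027 and SPNCRNA.4361, and SPNCRNA.2648 lay over the retrotransposon mRNA Tf2-1. The 2 longest intergenic lncRNAs, SPNCRNA.7226 with 6078 bp and SPNCRNA.7192 with 5975 bp, both lay in centromere III. The third, SPNCRNA.1164 with 5123 bp, lay 120 bp from gsf2, a flocculin gene. The shortest length was again 200 bp, shared by 8 intergenic lncRNAs, among them SPNCRNA.2011, SPNCRNA.2530 and SPNCRNA.4963.

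Splicing was annotated for almost no lncRNA. Of 7158 records 4, or 0.0559%, had 2 exons and none had more, against 2465 of 5121 mRNAs (48.1%) with at least 1 intron. The coding sequence records that the annotation attaches to all 7158 lncRNAs were ignored here. All 4 spliced records lie on chromosome I: prl5 and prl56 are antisense, prl57 and ter1 intergenic. The introns of 3 of them are shown so that their end bases can be compared, with the first 2 and last 2 bases in capitals, read from RefSeq (ASM294v3) on the strand of the transcript. They are prl5 at chr1:434268-434337, plus strand, prl57 at chr1:2327499-2327549, minus strand, and ter1 at chr1:3084760-3084815, minus strand.
prl5: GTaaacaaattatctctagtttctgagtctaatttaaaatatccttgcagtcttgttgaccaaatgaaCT
prl57: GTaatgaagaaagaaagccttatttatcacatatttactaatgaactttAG
ter1: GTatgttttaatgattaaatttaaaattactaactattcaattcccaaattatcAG

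The introns of prl57, with 51 bp, and ter1, with 56 bp, begin with GT and end with AG, as do 5241 of 5280 RefSeq mRNA introns (99.3%), whose median length is 56 bp. The telomerase RNA ter1 is cut at this intron without joining of the exons to give its mature end. The 70 bp intron of prl5 begins with GT and ends with CT. The 4th gap, in prl56, is 7 bp long and has neither end.

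The lncRNA density differed little among the chromosomes, while the mix of classes shifted. Chromosome I carried 3130 lncRNAs, chromosome II 2656 and chromosome III 1372, which is 561.0, 584.3 and 559.8 per Mb. For each 100 mRNAs there were 133.9, 142.3 and 149.5 lncRNAs, because mRNAs were sparser on chromosome III (374.5 per Mb, against 418.9 on chromosome I). The antisense share was 77.1% on chromosome I, 74.3% on II and 70.8% on III, and the intergenic share was 20.4%, 22.9% and 26.0%. Per Mb, intergenic lncRNAs numbered 114.4, 134.0 and 145.2. Sense lncRNAs numbered 80, 74 and 45, or 2.56%, 2.79% and 3.28%. The median antisense length was similar, with 666.5, 702 and 673 bp.

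**Figure D2:**
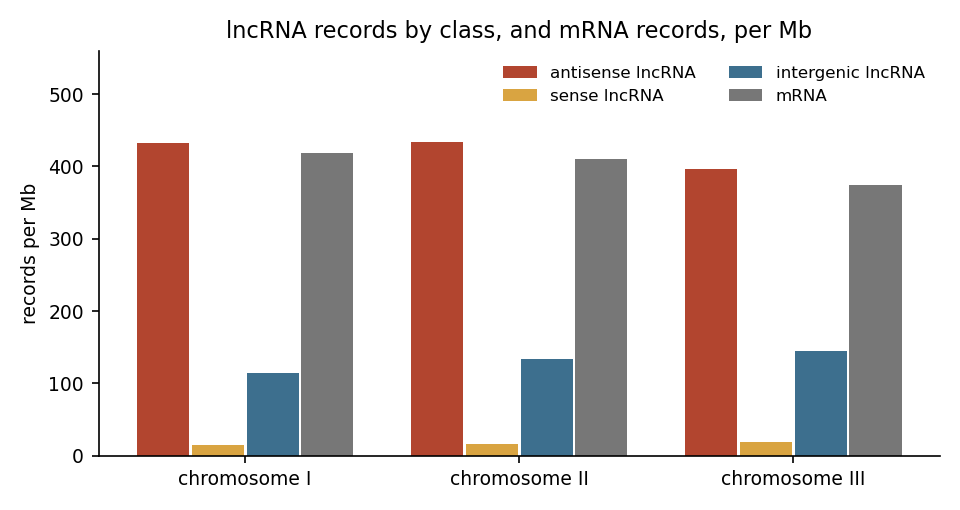
Records per Mb on chromosomes I, II and III, with 1 bar for each lncRNA class and 1 for mRNAs. Intergenic lncRNAs are sparsest on chromosome I (114.4 per Mb) and densest on chromosome III (145.2 per Mb), where antisense lncRNAs (396.2 per Mb) and mRNAs (374.5 per Mb) are sparsest.

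The mix of classes also differed by place. The centromere records held 108 lncRNAs (23, 37 and 48 on chromosomes I, II and III), all intergenic since no mRNA lies there, at 749.1 per Mb and a median of 1054.5 bp. The outer 100 kb at each chromosome end held 351 lncRNAs at 585.0 per Mb, of which 164 were antisense, 6 sense and 181 intergenic (51.6%). Elsewhere 6699 lncRNAs stood at 566.2 per Mb, with 77.5% antisense and 19.6% intergenic. An antisense lncRNA lay over 66.7% of mRNAs near the ends (124 of 186), against 75.9% elsewhere. Among the 6 ends this share was lowest at the right end of chromosome II, with 13 of 26 mRNAs, and highest at the right end of chromosome III, with 28 of 35.

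Antisense lncRNAs mostly lay inside the mRNA or ran over its 5′ end. Of 6020 pairs of lncRNA and mRNA on opposite strands, the lncRNA lay wholly within the mRNA in 2932 (48.7%). It ran over the 5′ end of the mRNA in 1855 (30.8%), over the 3′ end in 877 (14.6%), and held the whole mRNA in 356 (5.91%). The median overlap was 527 bp, or 25.4% of the mRNA. Coding bases were overlapped in 85.7% of the pairs, with 94.4% where the lncRNA lay within the mRNA and 53.1% where it ran over the 3′ end. Of the 5356 antisense lncRNAs, 4823 (90.1%) had 1 partner, 511 had 2, 21 had 3 and 1 had 4. Overlap was rarely marginal: 2966 (55.4%) lay wholly over mRNAs, and 96 had less than 10% of their length there.

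Along the mRNA, cover by opposite-strand lncRNAs leaned to the 5′ side. It was 44.8% of mRNAs in the first of 20 equal bins, highest at 51.3% in the bin centred at 22.5% of the length, and 24.9% in the last bin. Same-strand lncRNAs covered 1.45% in the first bin, 0.332% near the middle and 1.05% in the last bin. By segment, opposite-strand lncRNAs covered 41.0% of 5′ UTR bases, 49.0% of coding bases, 42.7% of intron bases and 20.1% of 3′ UTR bases. The 3′ UTRs were also the segment most often facing another mRNA, with 41.3% of bases, against 4.81% in 5′ UTRs and 7.47% in coding sequence. Among bases that face no mRNA the lncRNA cover was 43.0% in 5′ UTRs, 52.9% in coding sequence, 47.0% in introns and 34.0% in 3′ UTRs, so the order of the segments was the same and the gap narrower.

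**Figure D3:**
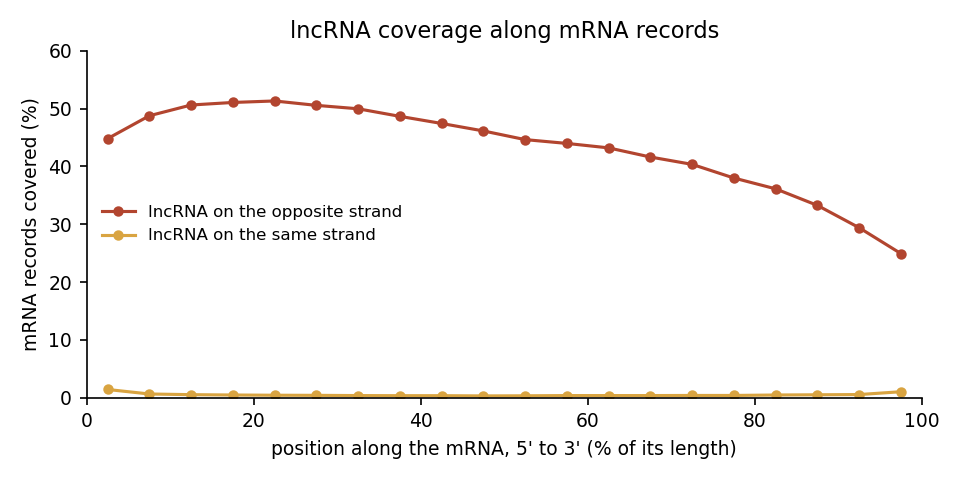
Percent of the 5121 mRNA records covered by a lncRNA on the opposite or the same strand, in 20 bins from the 5′ to the 3′ end of the mRNA. Opposite-strand cover is highest at 51.3% in the first part of the mRNA and lowest at 24.9% in the last bin, and same-strand cover is highest at 1.45% in the first bin.

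Seen from the mRNAs, 3867 of 5121 records (75.5%) had at least 1 lncRNA on the opposite strand, and 3652 (71.3%) had one over coding bases. By gene the background was 3860 of 5113 mRNA genes, or 75.5%. One partner was found for 2399 mRNAs (46.9%), 2 for 1008 (19.7%), and 3 or more for the others up to 8. Antisense lncRNAs covered at least 50% of 2254 mRNAs (44.0%) and the whole of 362 (7.07%), with a median of 58.8% among mRNAs that had a partner. The share was 75.01% on chromosome I, 75.8% on II and 76.1% on III. It was 74.6% for mRNAs with introns (1838 of 2465) and 76.4% for those without (2029 of 2656).

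Longer mRNAs had a partner more often but fewer partners per kb. In 4 groups of equal size from short to long, the share was 62.3%, 74.4%, 80.3% and 85.1%, and the number of partners per kb of mRNA was 0.868, 0.662, 0.581 and 0.481. The median percent of the mRNA covered was 41.2%, 45.7%, 42.7% and 36.8%. These medians include mRNAs without a partner, which are more common among short mRNAs, so they do not compare cover among mRNAs with one. The median length was 1888 bp for mRNAs with a partner and 1433.5 bp for those without. The mRNA with most partners was mdn1, 14352 bp long, which encodes a giant ATPase of ribosome assembly: it had 8 lncRNAs over 41.4% of its length. With 7 each followed mkh1 (a MAP kinase kinase kinase), sib1 (ferrichrome synthesis, at 15232 bp the longest mRNA), cdc20 (DNA polymerase epsilon), tor1 (a TOR kinase), nuc1 (RNA polymerase I), tlh2 (a telomere-linked helicase) and mor2 (cell polarity).

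**Figure D4:**
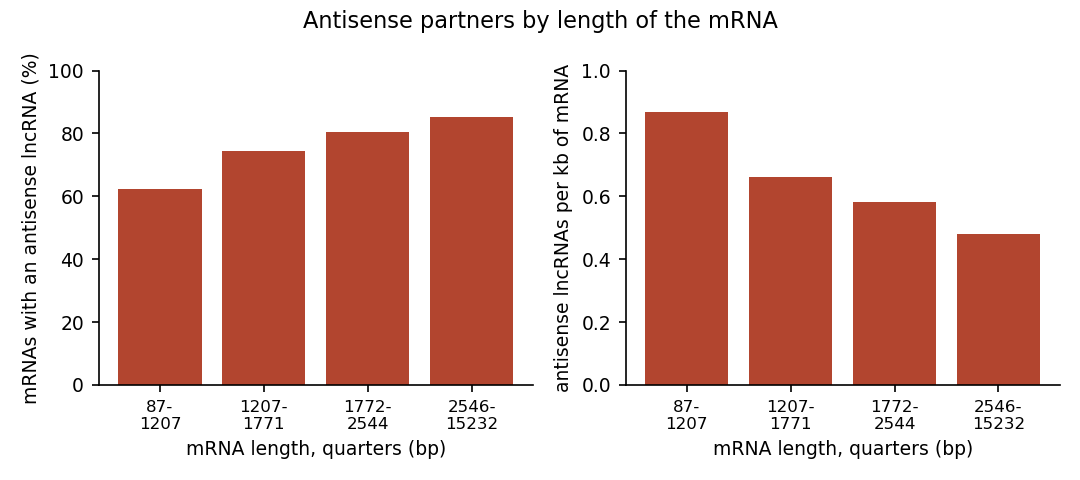
Antisense partners of mRNAs in 4 groups of equal size by mRNA length in bp: the left panel gives the percent of mRNAs with a partner and the right panel the number of partners per kb of mRNA. The percent is 62.3 in the shortest group and 85.1 in the longest, whereas the number per kb is 0.868 in the shortest and 0.481 in the longest.

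The 199 sense lncRNAs met their mRNAs mostly at the ends and by few bases. They formed 205 same-strand pairs, with a median overlap of 64 bp (3 to 1956 bp). The lncRNA ran over the 5′ end of the mRNA in 114 pairs (55.6%, median 49 bp) and over the 3′ end in 71 (34.6%, median 64 bp), lay within the mRNA in 9 and held it in 11. Coding bases were reached in 26 pairs (12.7%). The longest sense lncRNA, SPNCRNA.725 with 4620 bp, overlapped rio1 by 26 bp on the same strand and the cohesin gene psm3 by 3890 bp on the other. It was followed by SPNCRNA.1203 (4422 bp, at tol1) and SPNCRNA.609 (4339 bp, at hsp3104). The shortest were SPNCRNA.462 (282 bp, at dar2), SPNCRNA.1623 (359 bp, sharing 7 bp with the ribosomal protein gene rps1801) and prl62 (389 bp, within msi2).

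The 3 phosphate lncRNAs were all of the sense class. On chromosome II at 352335 to 354234, minus strand, nc-tgp1 (1900 bp) ran over the 5′ end of tgp1, a glycerophosphodiester transporter gene, by 77 bp. On the same chromosome prt2 (3429 bp, at 4449081 to 4452509 of the deposited annotation, plus strand) overlapped pho84, a phosphate transporter gene, by 1870 bp. Next to it nc-pho1 (2560 bp, 4452898 to 4455457, plus strand) overlapped pho1, the acid phosphatase gene, by 1413 bp. The overlaps of prt2 and nc-pho1 lie far above the class median of 64 bp, while that of nc-tgp1 lies near it. Each of these 3 mRNAs also had 1 antisense lncRNA, which covered 64.5% of tgp1, 89.5% of pho84 and 14.4% of pho1.

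Most intergenic lncRNAs lay close to an mRNA. Over all 1603, the 108 in centromeres included, the median distance to the nearest mRNA was 260 bp (middle 50% 116 to 642 bp, highest 37886 bp). Within 500 bp lay 1100 (68.6%) and beyond 1 kb 264 (16.5%). The nearest mRNA was divergent for 600 (37.4%), downstream on the same strand for 521 (32.5%), upstream on the same strand for 254 (15.9%) and convergent for 228 (14.2%). Median GC content was 32.6% in intergenic lncRNAs, 35.2% in sense and 37.4% in antisense lncRNAs, against 37.2% in mRNAs. Antisense lncRNAs had more A than T on their own strand (32.4% and 30.2% of bases), and mRNAs more T than A (32.3% and 30.2%).

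Names beyond the systematic identifier were rare, with 81 named lncRNA genes and 82 records. Of these records 28 were antisense, 14 sense and 40 intergenic, whereas antisense lncRNAs made up 74.8% of the whole set. The prl series held 52 (21 antisense, 5 sense and 26 intergenic), the meu series 5 (1, 1 and 3), nam1, nam2, nam3, nam5 and nam6 formed 5 (0, 1 and 4), and no mug name was found. Both sme2 records, 1562 and 509 bp long, shared 212 bp with the 3′ end of mrpl8, a mitochondrial ribosomal protein gene, and none of its coding bases. At rec7, a meiotic recombination gene, tos1 (1610 bp) overlapped 1142 bp on the opposite strand and tos2 (549 bp) lay within the gene, and rec7 had 4 partners in all. One of these, the sense-class SPNCRNA.1203, held the whole 2019 bp of rec7. The lncRNA meu16 (2612 bp) lay over 2555 bp of mde6. At tco1 the sense lncRNA nc-tco1 (2771 bp) held the whole mRNA of 1956 bp. Short overlaps were found too: prl4 shared 20 bp with mad2, a spindle checkpoint gene, cti6-antisense-1 (922 bp) shared 21 bp with cti6, and rse1 (3776 bp) shared 25 bp with cyc3. The RNAs of known machines, ter1, mrp1 (RNase MRP), srp7 (signal recognition particle) and rrk1 (RNase P), carry the lncRNA type too, and rrk1 was antisense to pre10 over 143 bp.

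Of the genes in 11 pathway lists, 74 of 92 that were found (80.4%) had an antisense lncRNA, close to the 75.5% of all mRNA genes. Among the genes deleted in the study, clr4 had SPNCRNA.4728 over 35.4% of its length and set1 had SPNCRNA.6837 over 16.7%, while swi6 and mst2 had none. The list headed HP1 and chromodomain leaves out swi6, which is counted among the deleted genes. Its 3 genes all had one: chp2, the other HP1 gene, over 73.1%, tas3 of the RITS complex over 53.6% with 3 lncRNAs, and chp1 over 16.0%. Of the HP1 genes chp2 and swi6, only chp2 thus had a partner. All 5 Clr4 complex genes found had one, from 8.11% of rik1 to 77.1% of rbx1. In the RNA interference list 9 of 10 had one, with ago1 (Argonaute) covered over 77.3%, dcr1 (Dicer) over 30.7%, rdp1 (RNA-dependent RNA polymerase) over 34.3% and arb1 over its whole length, and stc1 had none. The deacetylase complex SHREC and sir2 gave 4 of 5, with clr3 covered whole and clr2 without a partner.

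Among the anti-silencing genes epe1 (a JmjC protein) and paf1 had partners, over 72.0% and 96.5% of their length, and leo1 and mst2 had none. In RNA elimination and the exosome 12 of 14 had one, among them mmi1 over 63.8% and the exosome nuclease genes rrp6 over 81.1% and dis3 over 92.8%, while rrp4 and air1 had none. Of the meiotic genes 13 of 15 had one: mei4, a forkhead transcription factor gene, over 76.6%, ssm4 over 95.1%, and the recombination genes rec12 and dmc1 over their whole length, with spo5 and crs1 as the exceptions. In phosphate control 6 of 7 had one and pho7 had none. The stress and metabolism list gave 11 of 15, with fbp1, adh1, nmt1 and gut2 covered whole and ctt1, gpx1, zym1 and inv1 without a partner. The reference genes gave 7 of 11, without act1 (actin), nda3 (beta-tubulin), wee1 and hhf1. Lists of this size differ from 75.5% by few genes each, so the counts describe the lists and set none apart.

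**Figure D5:**
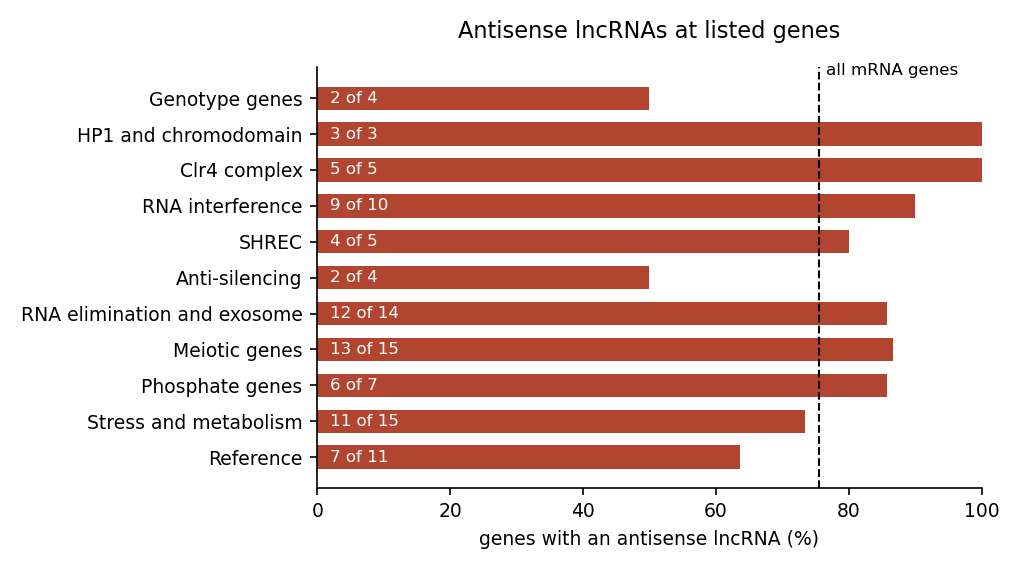
Percent of the genes found in each of 11 lists that have at least 1 antisense lncRNA, with the counts in the bars and a dashed line at the 75.5% of all mRNA genes. The bars reach from 2 of 4 genes in the genotype and anti-silencing lists to all 5 Clr4 complex genes found and all 3 of the HP1 and chromodomain list. The HP1 gene swi6, without a partner, is counted in the genotype list.

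Most lncRNAs, and above all most antisense lncRNAs, are absent from the other deposited annotation, called tetarr6. Of the 7158 records 5775 (80.7%) have a gene that is not in tetarr6 and 1383 (19.3%) have one that is. The records not in tetarr6 were 79.8% antisense, 0.173% sense and 20.1% intergenic, against 54.2%, 13.7% and 32.1% of those in tetarr6. They were shorter, with a median of 533 bp, against 1077 bp in tetarr6, and the 4 spliced records were all in tetarr6. Among records in tetarr6 the median was 1310 bp for 750 antisense, 1227 bp for 189 sense and 703.5 bp for 444 intergenic lncRNAs. Among those not in tetarr6 it was 591.5 bp for 4606 antisense, 1322 bp for 10 sense and 384 bp for 1159 intergenic lncRNAs. An antisense partner that is not in tetarr6 was found for 3212 mRNAs (62.7%) and one that is in tetarr6 for 962 (18.8%), and 2905 mRNAs (56.7%) had only partners not in tetarr6. Whether the added records differ in how they were detected was not tested. RefSeq had a counterpart of equal length for 7125 of the 7158 records (99.5%), of which 7099 fell in the same class.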

How the data were processed

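The study comprises ChIP-seq libraries of fission yeast, for which the submitters' processing notes name Trimmomatic and BWA with no version, and the build is not given in the sources used here. The library values were not analysed here. The 2 deposited annotations list positions in bp; per the file headers, the authors credit them to PomBase or, for tetarr6, made them with Geneious 7.1.5. A score is carried by 0 of 58359 records, and the annotations say nothing of the depth of the libraries.

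Records were classed in Python 3.11.15 (numpy 2.4.6, matplotlib 3.10.9) by overlap of at least 1 bp with mRNA spans. Exons came from intron records, and coding records attached to lncRNAs were ignored. As a check of the code alone, the classing recovered 200 of 200 simulated lncRNAs of each class, which had been labelled by the same rule. Sequence was read from RefSeq (ASM294v3) for the 7125 lncRNAs with a counterpart of the same identifier and length, because deposited positions are shifted on parts of chromosomes II and III; deposited positions were not converted.

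The set and the gene lists were chosen with earlier results of these data known. Named genes are those lists, named lncRNAs of fixed series, the 3 longest and shortest per class (3 of those tied at 200 bp), and the mRNAs with most partners, with all ties. The phosphate lncRNAs, tos1, tos2, nc-tco1, cti6-antisense-1, rse1, mrp1, srp7 and rrk1, and the TNAAAC hexamer with its ranking, were chosen after their values were seen. Names sought in vain were left out.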

Additional observations from a re-analysis of the deposited data

How the results depend on the processing

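No paired analysis was possible because annotation records belong to no sample, and no test was run. An overlap of 50 bp instead of 1 bp left 119 sense lncRNAs, an overlap of at least 50% of the lncRNA left 29, and overlap with coding segments of mRNAs left 26, against 199. For the tetarr6 annotation the same rule was applied to gene records. Genes with SPNCRNA identifiers stood in for lncRNAs and genes with a coding record for mRNAs, so the record types are unlike. This gave 822 antisense, 298 sense and 446 intergenic lncRNAs and a share of mRNAs with an antisense lncRNA of 21.2%, against 5356, 199, 1603 and 75.5%. The sense share of lncRNAs was 19.03% there, against 2.78%, and 88.9% of the 1383 shared records kept their class; the cause was not tested. The share of mRNAs with an antisense lncRNA was 74.1% with lncRNAs of the antisense class only and 71.3% over coding segments. The density of chromosome III relative to the whole annotation was 0.984 per Mb and 1.07 per mRNA, which turned its direction because mRNAs are sparser there. The antisense count was within 1.5 times under the other settings tried (4781 to 5376). The hexamer shares also depended on the motif: TNAAAC, chosen after seeing the data, stood in 70.5% of antisense, 91.0% of sense and 65.8% of intergenic lncRNAs. Among mRNAs, which are longer, the share was 89.4%. An annotated record is no measure of expression, and the precision of its ends was not tested.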

Other observations

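The lncRNAs also overlapped one another and other kinds of record. A lncRNA lay on the opposite strand of another lncRNA for 980 of the intergenic (61.1%), 109 of the sense (54.8%) and 397 of the antisense lncRNAs (7.41%), or 1486 in all (20.8%). The antisense class is defined by an mRNA on the opposite strand, so these shares are not independent of the classing. Same-strand overlap of lncRNAs was rare, with 97 records (1.36%). All 27 dg and dh repeats of the centromeres, which feed RNA interference, were overlapped by lncRNAs, 83 in number and all intergenic. No mRNA lies in the centromere records, so the class was fixed there. All 14 LTR retrotransposon records were overlapped by 36 lncRNAs, of which 28 were antisense and 8 intergenic. Of LTR records 86 of 238 were overlapped, of tRNAs 23 of 171, of rRNAs 32 of 47, of snoRNAs 21 of 66 and of pseudogenic transcripts 26 of 31. Beside these counts, lncRNAs covered 47.8% of the annotated chromosome length, and the length of the overlapped records was not allowed for.

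In windows of 100 kb, 124 in number, the lncRNA count ran between 44 and 73 with a median of 56.5. The densest window, with 73, was chromosome III 1000001 to 1100000, which reaches into the centromere. It was followed by chromosome II 1600001 to 1700000, which holds the centromere, with 72, and by chromosome II 100001 to 200000 and 300001 to 400000, with 69 each.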
